A study of Homo sapiens with 6 samples.

Results

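The 10 genes described are SELENOH, SELENOK, SELENOS, SELENOF, SELENOM, SELENON, SELENOT, SELENOW, SELENOP and SELENOO, taken by symbol from a table of 16953 genes; all 10 symbols had a row. The series sequenced total RNA of H1048 cells, an established human small cell lung cancer line whose genotype is labelled wild type. Of 6 samples, 3 were exposed for 48 h to ISP-I at 10 µM and 3 to the solvent DMSO; ISP-I is isovalerylspiramycin I, a macrolide, and the title of the series names reactive oxygen species, DNA damage and stress of the endoplasmic reticulum (ER). In the table the authors deposited, 3 libraries lettered D to F are set against 3 lettered A to C. No label ties a letter to a treatment, so every difference below has A to C as its base and is not assigned to ISP-I or DMSO. Values per library were not used for the same reason, and the groups are therefore shown as the authors' fold changes and not as levels.

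Selenoproteins carry selenocysteine, the selenium analogue of cysteine, usually at a redox-active site. It is encoded by UGA, normally a stop codon, which the ribosome reads through with the help of a stem-loop in the 3′ untranslated region, a binding protein and a dedicated elongation factor. When selenium or this machinery is short, UGA acts as a stop, and mRNAs in which it lies well upstream of an exon junction can be degraded by nonsense-mediated decay. Many members of the family sit in the ER, where they take part in protein quality control, disulfide chemistry and calcium handling.

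The codon for selenocysteine lies at very different places in them. Sequences are coding strand, 5′ to 3′, read from GENCODE release 29 transcripts (GRCh38), with the selenocysteine codon in capitals and up to 15 coding bases on either side; they are shown because SELENOS, SELENOK and SELENOO end in a true stop codon almost directly after it, while the others read on.
SELENOS: ccgtcatctggcggaTGAggctaa
SELENOK: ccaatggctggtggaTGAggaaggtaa
SELENOO: gaactgtgcgtgacaTGAtcttcgtaa
SELENOF: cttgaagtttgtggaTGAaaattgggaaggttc
SELENOT: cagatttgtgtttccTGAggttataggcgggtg
SELENOM: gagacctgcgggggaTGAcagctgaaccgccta
SELENOH: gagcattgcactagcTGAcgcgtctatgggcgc
SELENOW: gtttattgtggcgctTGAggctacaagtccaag
In SELENOS the selenocysteine is codon 188 of 189, in SELENOK codon 92 of 94 and in SELENOO codon 667 of 669. It is codon 96 of 165 in SELENOF, 49 of 195 in SELENOT, 48 of 145 in SELENOM, 44 of 122 in SELENOH and 13 of 87 in SELENOW. SELENOP, the selenium transport protein, has 10, the first at codon 59 of 381 and the others between codons 300 and 378.

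The mRNAs of these selenoproteins did not move together between the sets. SELENOS, SELENOK and SELENOF were at least 2-fold higher in libraries D to F, and SELENOP, SELENON and SELENOM at least 2-fold lower, in the authors' deposited table. SELENOO and SELENOT were higher, and SELENOW and SELENOH lower, by less than 1.5-fold. At the authors' adjusted p under 0.05, 10 of 10 members were called, 5 higher and 5 lower, where 57.6% of the 15976 genes with an adjusted p were called at all, 29.7% as higher and 27.9% as lower. With at least a 2-fold difference also required, 6 members remained, 3 higher and 3 lower, against 24.1% of all genes tested, 12.8% higher and 11.3% lower. The median log2 fold change of the members was -0.01 and that of all genes tested 0.05, whereas the median absolute log2 fold change was 1.10 for the members and 0.67 for all genes tested. With 57.6% of genes called, a call by itself says little about a member, so sizes and intervals are given below. In these bulk samples, fewer cells with an mRNA and less of it in each cell cannot be told apart.

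**Figure D1:**
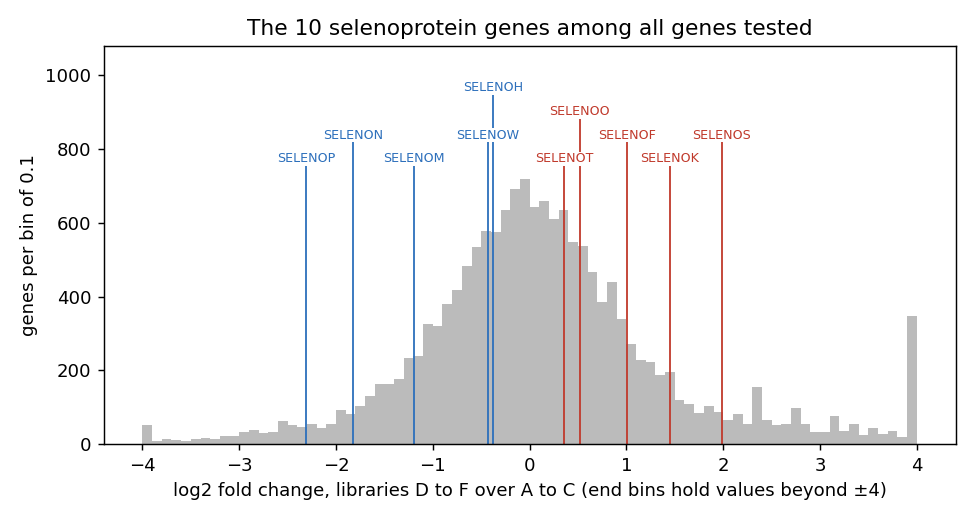
Number of genes (y axis) in bins of 0.1 of the authors' log2 fold change, libraries D to F over A to C (x axis), for the 15976 genes with an adjusted p; lines mark the selenoprotein genes, red where higher and blue where lower. SELENOS, SELENON and SELENOP lie in the outer parts of the distribution, and SELENOT, SELENOH and SELENOW near its centre.

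SELENOS and SELENOK are small proteins anchored in the ER membrane. SELENOS (VIMP) recruits the ATPase VCP (p97) to the derlin channel proteins, through which misfolded proteins leave the ER for the proteasome, and SELENOK binds the same complex and is a cofactor of the palmitoyltransferase ZDHHC6. SELENOS (chromosome 15, 101270817 to 101277500, minus strand, 7 exons) had a log2 fold change of 1.99, or 3.96-fold higher in D to F (adjusted p of 4.51e-51 in the authors' deposited table). Its standard error, as implied by the authors' fold change and p if that p is the two-sided Wald p of the authors' DESeq2 run for an unshrunken fold change, was 0.13, with a 95% interval of 1.73 to 2.24; all standard errors and intervals below rest on that assumption. Of all genes tested, 91.1% had a smaller log2 fold change than SELENOS, and it ranked 379th by p. SELENOK (chromosome 3, 53884410 to 53891988, minus strand, 5 exons) was at 1.45, or 2.73-fold higher (95% interval 1.22 to 1.69, adjusted p of 2.80e-32 in the authors' deposited table), above 87.6% of genes tested. The intervals of SELENOS and SELENOK did not overlap. GENCODE lists 3 pseudogenes of SELENOK, none with a row in the table, and the handling of reads shared with them is not stated.

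The degradation genes around SELENOS and SELENOK were divided, in shares near those of all genes. Of 17 measured ER-associated degradation genes, 6 were higher and 4 lower in D to F (35.3% and 23.5% of them, against 29.7% and 27.9% of all genes), with a median log2 fold change of 0.07. The 4 with the smallest p were all higher in the authors' deposited table: the derlin DERL2 (1.41), the ubiquitin-conjugating enzyme UBE2J1 (1.12), the lipid droplet and degradation factor AUP1 (0.92) and the stress-induced scaffold HERPUD1 (1.26). The ligase SYVN1 was at 0.85 in the authors' deposited table. The direct partner of SELENOS, VCP, was lower (-0.67, adjusted p of 8.67e-17 in the authors' deposited table), as was its cofactor NPLOC4 (-0.53), and DERL1 was at 0.14 with an adjusted p of 0.251. ZDHHC6, the partner of SELENOK, was lower by a small amount (-0.34, adjusted p of 0.0110 in the authors' deposited table). SEL1L (-0.35, adjusted p of 0.00227) and OS9 (-0.27, adjusted p of 0.00752) were the remaining lower degradation genes in the authors' deposited table. The mRNAs of SELENOS and SELENOK thus differed in direction from those of VCP, NPLOC4, SEL1L, OS9 and ZDHHC6. They shared it with the 6 degradation genes that were higher, DERL2 among them.

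SELENOT and SELENON, the other members anchored in the ER membrane, lay apart from that pair and from each other. SELENOT is a thioredoxin-like protein found with the oligosaccharyltransferase, the enzyme complex that attaches N-linked sugars. Its mRNA (chromosome 3, 150602875 to 150630445, plus strand, 6 exons) was 1.28-fold higher (log2 fold change 0.36, 95% interval 0.15 to 0.57, adjusted p of 0.00206 in the authors' deposited table), a value above that of 62.3% of all genes tested. The oligosaccharyltransferase genes OSTC (0.57), STT3A (0.37) and STT3B (0.21) were also higher in the authors' deposited table, with adjusted p-values of 9.97e-06, 0.000337 and 0.0236. No other subunit of that complex was analysed here. The 9 listed partners of SELENOF, SELENOK, SELENON and SELENOT had 4 higher and 3 lower (44.4% and 33.3%). Of all genes, 29.7% were higher and 27.9% lower. SELENOT shares 61 exonic bases with SERP1 on the opposite strand, and GENCODE lists 2 pseudogenes of SELENOT.

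SELENON senses calcium in the ER lumen and activates the calcium pump SERCA2; its loss causes congenital muscle disease. Its mRNA (chromosome 1, 25800176 to 25818224, plus strand, 13 exons) was 3.54-fold lower in D to F (log2 fold change -1.82, 95% interval -2.04 to -1.61, adjusted p of 3.20e-58 in the authors' deposited table). By p it ranked 303rd of all genes tested, ahead of every other member, and 4.94% of genes tested had a lower log2 fold change. ATP2A2, which encodes SERCA2, was lower too (-0.56, adjusted p of 5.72e-12 in the authors' deposited table), while the calcium release channel gene RYR1 was higher (2.22, adjusted p = 3.44e-09) and ITPR1 was not called (0.14, adjusted p = 0.548). In GENCODE, SELENON shares 378 of its 4424 exonic bases with AL020996.2 on the same strand and 286 with the antisense gene AL020996.1; neither has a row in the table, and whether counting used strand is not stated.

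SELENOF and SELENOM, related thioredoxin-like proteins of the ER lumen, differed in opposite directions. SELENOF (Sep15) binds UGGT1, the sensor that holds misfolded glycoproteins in the folding cycle. Its mRNA (chromosome 1, 86862445 to 86914424, minus strand, 5 exons) was 2.02-fold higher (log2 fold change 1.01, 95% interval 0.79 to 1.23, adjusted p of 8.97e-19 in the authors' deposited table). SELENOM, a redox protein abundant in brain, was 2.29-fold lower (chromosome 22, 31104772 to 31120069, minus strand, 5 exons; log2 fold change -1.20, 95% interval -1.76 to -0.63, adjusted p of 8.64e-05 in the authors' deposited table). The interval of SELENOM is wider, with an implied standard error of 0.29 against 0.11 for SELENOF. UGGT1 was lower (-0.50, adjusted p of 1.81e-05 in the authors' deposited table) and UGGT2 was not called (0.15, adjusted p = 0.278), so SELENOF and UGGT1 differed in direction.

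Of 12 other ER redox genes measured, 4 were higher and 3 lower (33.3% and 25%, near the 29.7% and 27.9% of all genes), with a median log2 fold change of -0.14. The disulfide isomerase PDIA4 (-1.07) and the ER glutathione peroxidase GPX8 (-1.86) were lower, and the oxidase ERO1B (1.25) and the isomerase-like TXNDC11 (1.17) higher, in the authors' deposited table. All 4 of these were at least 2-fold different, and the other 8 were not.

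Outside the ER, SELENOH and SELENOW were slightly lower. SELENOH is a nucleolar, DNA-binding redox protein and SELENOW a small cytosolic one that binds 14-3-3 proteins; with SELENOT and SELENOV they form a family that shares a selenocysteine-containing thioredoxin-like fold. SELENOH (chromosome 11, 57741250 to 57743554, plus strand, 3 exons) was 1.30-fold lower (log2 fold change -0.38, 95% interval -0.64 to -0.13, adjusted p of 0.00705 in the authors' deposited table). SELENOW (chromosome 19, 47778572 to 47784686, plus strand, 6 exons) was 1.35-fold lower (-0.43, 95% interval -0.69 to -0.17, adjusted p of 0.00267 in the authors' deposited table). Their values differed by 0.05 and both lay inside the middle 50% of all genes tested, which ran from -0.59 to 0.75. SELENOV was not called (0.22, adjusted p of 0.911 in the authors' deposited table), which does not show that it was unchanged. Within this family SELENOT was the member called higher. SELENOH shares 207 of its 2305 exonic bases with AP001931.1 on the same strand (-0.79, adjusted p of 0.405 in the authors' deposited table), and GENCODE lists 1 pseudogene of SELENOW.

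Set side by side, the 6 ER-resident members had 4 higher and 2 lower, a median log2 fold change of 0.68 and a range from -1.82 to 1.99, while the nucleolar and cytosolic members were both lower, at -0.38 and -0.43. The ER-resident members thus spread over 3.81 log2 units and lay on both sides of the nucleolar and cytosolic pair. Within the ER, the 4 membrane proteins had 3 higher and 1 lower, and the lumenal pair 1 of each. Of all genes tested, 29.7% were higher and 27.9% lower, and the median log2 fold change was 0.05. Place in the cell is a description here: the classes hold few genes, the genes of a class are not replicates, and the difference between classes was not tested.

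**Figure D2:**
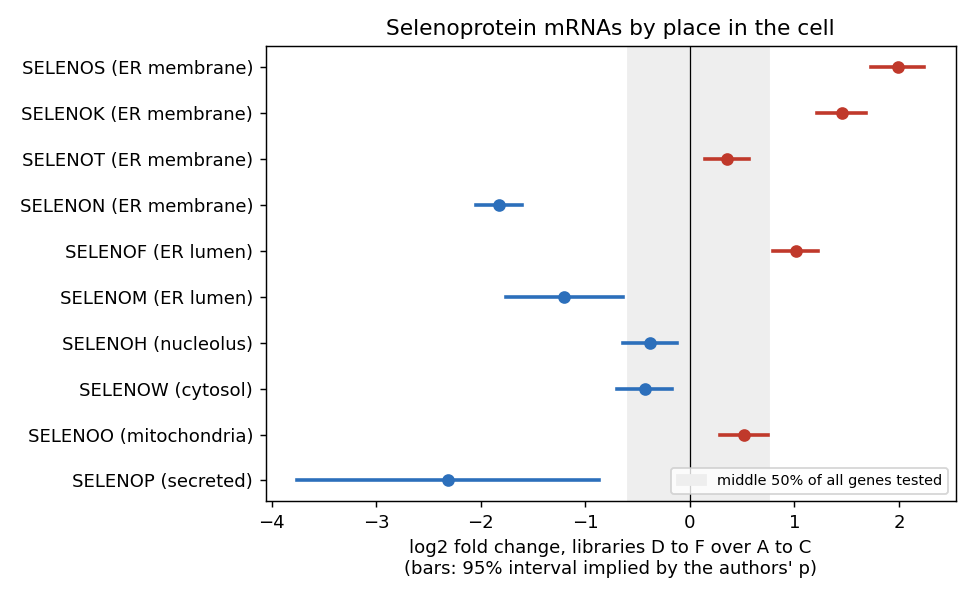
The authors' log2 fold change of each selenoprotein mRNA (points, x axis), libraries D to F over A to C, grouped by place in the cell (y axis); bars are 95% intervals implied by the authors' p, red is higher and blue lower, and the grey band holds the middle 50% of all genes tested. ER-resident members lie on both sides of zero, from -1.82 to 1.99, SELENOH and SELENOW sit just below zero, and SELENOP has the widest interval.

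SELENOP and SELENOO belong to neither side of that contrast. SELENOP is the plasma protein that carries selenium from the liver to other tissues. Its mRNA (chromosome 5, 42799880 to 42887392, minus strand, 5 exons) had the lowest value of the members, 4.97-fold lower in D to F, but with the largest error (log2 fold change -2.31, implied standard error 0.74, 95% interval -3.75 to -0.87, adjusted p of 0.00367 in the authors' deposited table). The interval corresponds to a decrease of between 1.83-fold and 13.5-fold. CCDC152, on the opposite strand, shares 1452 of the 5688 exonic bases of SELENOP (25.5%) and was at -3.30 without being called (adjusted p of 0.247 in the authors' deposited table); without known use of strand, reads from the shared part cannot be told apart. SELENOO is a mitochondrial pseudokinase that transfers AMP to other proteins. Its mRNA (chromosome 22, 50200979 to 50217616, plus strand, 9 exons) was 1.43-fold higher (log2 fold change 0.52, 95% interval 0.28 to 0.75, adjusted p of 3.71e-05 in the authors' deposited table). In GENCODE, SELENOO shares 229 of its 2363 exonic bases with the antisense gene AL022328.2, and SELENOP shares 604 with the antisense gene AC008945.1. The limit of unknown strand use applies to these overlaps too.

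From highest to lowest, the order was SELENOS, SELENOK, SELENOF, SELENOO, SELENOT, SELENOH, SELENOW, SELENOM, SELENON and SELENOP. Neighbours whose intervals overlapped were SELENOK with SELENOF, SELENOO with SELENOT, SELENOH with SELENOW, SELENOW with SELENOM, SELENOM with SELENON, and SELENON with SELENOP. Intervals did not overlap between SELENOS and SELENOK, SELENOF and SELENOO, or SELENOT and SELENOH. These values come from the same libraries, and no test of a difference between members was made.

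The position of the selenocysteine codon can be read beside these values. In SELENOS, SELENOK and SELENOO, all higher, 1, 2 and 2 codons follow it before the stop codon. The last exon junction of the transcript lies 13 bases after it in SELENOS and 5 bases after it in SELENOK, and SELENOO has it in the last exon. SELENOF and SELENOT, also higher, have it 78 and 470 bases before the last junction. Among members that were lower, this distance was 136 bases in SELENOH, 135 in SELENOM, 243 in SELENOW and 357 from the first such codon of SELENOP. The other 9 such codons of SELENOP lie in its last exon. SELENOT, with the longest distance of those measured here, was higher. This describes 9 genes (SELENON was not included) whose values were known when the measure was chosen, and was not tested.

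**Figure D3:**
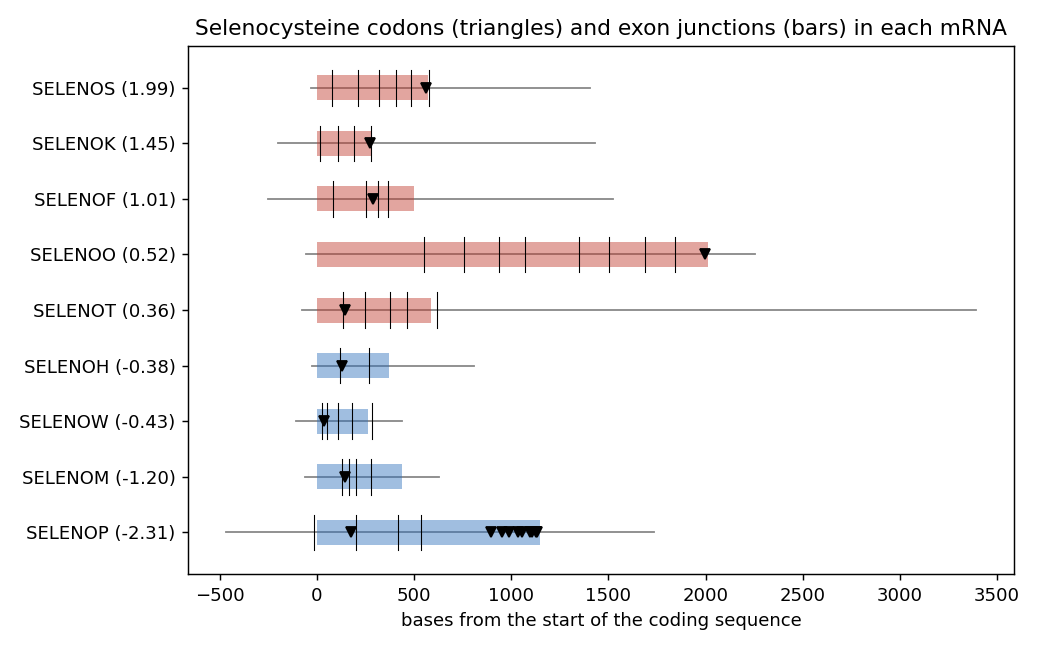
The mRNAs of 9 selenoproteins, SELENON not included, drawn to scale in bases from the start of its coding sequence (x axis), ordered by the authors' log2 fold change, which stands in brackets; boxes are coding sequence, red where higher and blue where lower in D to F, grey lines untranslated regions, thin bars exon junctions and triangles selenocysteine codons. In SELENOS, SELENOK and SELENOO the triangle lies at the very end of the box, and in SELENOT, which was higher, and SELENOW, SELENOH and SELENOM, which were lower, in its first part.

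Letters searched for in the promoters were found in members of both directions. RefSeq promoter windows (GRCh38.p14, 250 bases before to 50 after the start) matched 8 of the 10 members, all but SELENOM and SELENOO. Searched on both strands were the ER stress elements ERSE (CCAAT and CCACG with 9 bases of any kind between them) and ERSE-II (ATTGG and CCACG with 1 base between them), the unfolded protein response element UPRE (TGACGTGG), the ATF4-bound CARE core (TGATGNAA) and the core of the antioxidant response element (TGACNNNGC). The first 4 were in none of the windows of the 8 members, and in 0.0769%, 0.0541%, 0.729% and 3.62% of all 35116 promoter windows. At shares this low, their absence from 8 members says little, and elements that depart from these letters were not searched for. The antioxidant core was in SELENOK, SELENON and SELENOP, against 13.3% of all windows. The matches are shown with 10 bases on either side and the core in capitals, because they occur in members that differed in opposite directions.
SELENOK: gtcgcagatgTGACGATGCaaaaacgccc
SELENON: ccggtgtagcTGACCCCGCcccgggctct
SELENOP: tgctctgcttGCAAGGTCActgcaagaat
With their flanks, the stretches shown lie at chr3:53891958-53891986 (minus strand), chr1:25800058-25800086 (plus strand) and chr5:42811973-42812001 (minus strand). Their cores, without flanks, start 117, 125 and 99 bases before the RefSeq start. In SELENOP the core is on the strand opposite to the gene. The SELENOK and SELENOP matches lie inside the gene spans that GENCODE gives, downstream of its first start for these genes. SELENOK was higher and the other two lower, and a match of these letters is not evidence of a bound site.

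Selenoproteins outside this group were also divided. Of 15 others listed, DIO3 had no adjusted p and GPX6 was not analysed here. Of the 13 with an adjusted p, 4 were higher and 5 lower (30.8% and 38.5%, against 29.7% and 27.9% of all genes), with a median log2 fold change of 0.22. Those with the smallest p were the thioredoxin reductases TXNRD1 (1.86, cytosolic) and TXNRD2 (0.68, mitochondrial), the phospholipid synthesis enzyme SELENOI (1.26) and the deiodinase DIO2 (2.95), all higher in the authors' deposited table. The methionine sulfoxide reductase MSRB1 (-1.06) and the glutathione peroxidases GPX2 (-1.96), GPX3 (-0.86) and GPX4 (-0.37) were lower in the authors' deposited table, with TXNRD3 (-0.59), and GPX1 was not called (-0.001, adjusted p = 0.993).

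Of 10 genes listed around selenocysteine synthesis, insertion and selenium handling, 2 were higher and 3 lower (20.0% and 30.0%, against 29.7% and 27.9% of all genes). Their median log2 fold change was 0.21, and SEPHS2 counts both here and among the other selenoproteins. SEPSECS, which converts tRNA-bound phosphoserine to selenocysteine, was higher (1.12, adjusted p of 5.02e-21 in the authors' deposited table). SECISBP2, which binds the stem-loop of selenoprotein mRNAs, was lower (-0.72, adjusted p of 6.13e-10 in the authors' deposited table), as were the selenophosphate synthetase paralogue SEPHS1 (-1.17) and LRP8 (-0.50), a receptor for SELENOP. The elongation factor EEFSEC was not called (0.82, adjusted p of 0.839 in the authors' deposited table). With so large a p at that fold change, its value says little about either direction.

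**Figure D4:**
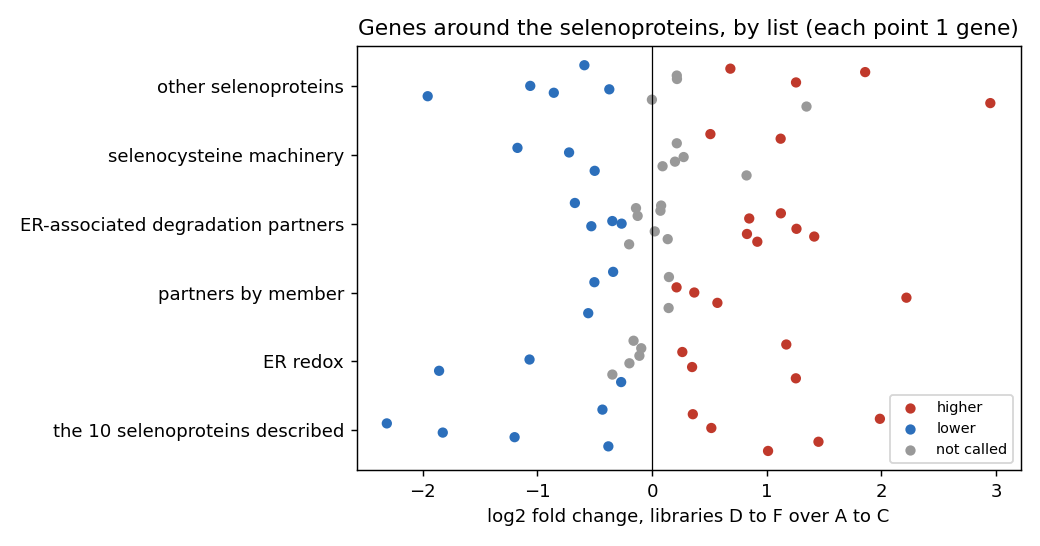
The authors' log2 fold change, libraries D to F over A to C (x axis), of each gene with an adjusted p in the lists around the selenoproteins (y axis); red points are higher and blue lower at an adjusted p under 0.05, and grey points not called. Every list holds genes on both sides, as do the selenoproteins in the bottom row.

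Markers of the cell line moved between the same sets. Beside the 29.7% of all genes that were higher and the 27.9% lower, 4 of 6 tuft-like small cell lung cancer markers were lower, including POU2F3 (-1.71, adjusted p of 3.42e-89 in the authors' deposited table), and of 3 neuroendocrine markers with an adjusted p 2 were higher, SYP (2.51) and INSM1 (1.81 in the same table). Of 5 fibroblast markers with an adjusted p 3 were lower and none higher (1 lower at an adjusted p under 0.01), LYZ was the call among 3 leukocyte markers (4.90), and none of 2 endothelial markers was called. The part of such changes in the selenoprotein values was not tested, and fold changes do not show whether a marker is present or absent.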

How the data were processed

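RNA was sequenced from 3 ISP-I and 3 DMSO samples. Per the submitters' processing notes, the authors used STAR, HTSeq, Trimmomatic and DESeq2 with build hg38; their versions, annotation and strand setting are not given here in any source. Per the file headers, the authors deposited a log2 fold change per gene, and whether it was shrunken is not given. The authors also deposited each gene's p-value, unadjusted and adjusted, under column names of DESeq2. The direction follows the order in which the authors name the sets. The 36 columns of values per library in the 2 tables carry letters that no label ties to a sample; they were left out of every result (ranges of those in the larger table were looked at while units were checked), so depth is not given and no count test was run, and the precision shown is that of the authors' p.

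The authors' adjusted p equals a Benjamini-Hochberg adjustment over the 15976 genes below 1; the 977 genes listed at 1 were treated as having none. The smaller table of 4021 genes equals the part of the larger with p under 0.05 and at least a 2-fold difference. A gene was called at an adjusted p under 0.05. Implied standard errors are the absolute log2 fold change divided by the normal quantile of the two-sided p. The arithmetic of this step and of the adjustment was checked on simulated data built with such p-values. That check cannot show whether the authors' p is of this kind, which stays an assumption. Members and lists were chosen with earlier results of these data known. Named genes are all members and up to 4 genes a list with the smallest p; known partners and further list genes were added after their values were seen. Selenocysteine codons came from GENCODE release 29, 1 transcript a gene (best APPRIS tag, then longest coding sequence), and matched every in-frame TGA; those of SELENON are not reported here. Listed genes with no row were not analysed here. Alternatives were a stricter threshold, other adjustments, a fold minimum, centring and a shorter promoter window. The steps ran in Python 3.11.15 with scipy 1.17.1, pandas 2.3.3, numpy 2.4.6 and matplotlib 3.10.9. The samples of a group are called biological replicates in the series' design text.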

Additional observations from a re-analysis of the deposited data

How the results depend on the processing

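All 10 members stayed called at an adjusted p under 0.01 and with p-values adjusted over every gene of the table. Centring on the all-gene median of 0.06 kept the authors' adjusted p, so it could change only directions and fold sizes. No member changed direction. With Bonferroni adjustment over every gene 4 were called, 3 higher (SELENOS, SELENOK, SELENOF) and 1 lower (SELENON), while all genes called went from 9195 to 5126. With a fold of at least 1.5 also required 6 were called, 3 higher and 3 lower, leaving out SELENOH, SELENOO, SELENOT and SELENOW. Centring took SELENOF below 2-fold (log2 fold change 0.95), so 5 members were at least 2-fold different. Under the alternatives run for them, no count of the 5 lists around the members and no motif count moved by more than 1.5-fold. At an adjusted p under 0.01, the partner list and the ER redox list each went from 4 to 3 higher and from 3 to 2 lower. ZDHHC6 and STT3B were among the genes no longer called. At an adjusted p under 0.01, an alternative added for the marker lists after seeing the data, 1 fibroblast marker was lower in place of 3. No paired analysis was possible because the columns per library carry no replicate number and no label ties them to a sample; leaving out each replicate was not run for the same reason.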

Other observations

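Members with a protein-coding neighbour that starts on the opposite strand within 1000 bases were SELENOT and SELENOF. SERP1, which encodes a small protein that stabilises membrane proteins at the ER translocon, starts 60 bases from SELENOT and was higher by more (1.20 against 0.36, adjusted p = 5.38e-38 in the authors' deposited table). HS2ST1, a heparan sulfate sulfotransferase, starts 283 bases from SELENOF and was not called (-0.24 against 1.01 for SELENOF, adjusted p = 0.0540 in the authors' deposited table).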
